A study of Mus musculus with 8 samples.

Results

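The 9 genes described here carry the insulin signal to the glucose transporter GLUT4 or move and replace that transporter: Insr, Irs1, Irs2, Akt2, Tbc1d4, Rab10, Trarg1, Slc2a4 and Slc2a1. They were taken by symbol from 19938 genes that had a transcript cluster with exactly 1 gene symbol on the array, and all 9 were found. The measured values entered in 2 ways. Where a gene had several clusters, its cluster was chosen by the highest mean over the 8 arrays. Trarg1 itself was selected on its difference between the groups, already known from these arrays, so that difference is described here without a test. The other 8 genes were added as its pathway.

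The RNA came from the full-thickness skin of E17.5 mouse embryos, and the arrays gave log2 values made by RMA, a method that scales all arrays to a shared distribution. There were 4 arrays of PpargΔ/Δ embryos, labelled PPARgamma null, and 4 of embryos labelled PPARgamma wildtype, called control. All embryos had a mixed C57BL6/SV129 background, and each array carried the RNA of an individual. How the allele was deleted, and in which cells, is not given in the sources used here, and neither litter nor sex is stated, so p-values measure the spread between these RNAs.

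In fat and muscle, insulin binds its receptor, the receptor phosphorylates docking proteins of the IRS family, and these bring in PI3K, which activates the kinase AKT. AKT switches off the Rab brake TBC1D4, Rab proteins such as RAB10 are then active, and vesicles that store GLUT4 fuse with the cell surface. PPARgamma is the nuclear receptor on which fat cells depend to form, and the fat layer of skin is being laid down late in mouse gestation. Full-thickness skin also holds a sheet of striated muscle, another tissue rich in GLUT4.

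The target gene did not check the labels. Pparg read 9.14, 9.19, 9.19 and 8.98 on labelled-null arrays 1 to 4, against 8.79, 8.88, 9.04 and 9.06 on control arrays 1 to 4. Pparg thus read higher, not lower, under the null label, with 3 of 4 labelled-null values above the highest control value and a difference of 0.18 (95% interval 0.01 to 0.35, limma adjusted p = 0.9995). The groups overlapped, and the exact two-sided permutation p was 0.0857, where 0.0286 is the smallest that 4 against 4 arrays can give. If the cluster reads exons that the deletion spares, its level cannot show the deletion, so directions are given for the arrays labelled Pparg null. Array medians lay between 6.93 and 6.96, and pairs of arrays correlated across transcript clusters at r = 0.989 to 0.994. Labelled-null array 4 and control array 1 lay away from the rest on the leading principal component of the autosomal genes tested, with scores of -21.7 and -8.62, against -3.12 to 9.02 on the other arrays. Markers of epidermis, muscle and fat were read: the basal keratin Krt5 averaged 12.50 and 12.53, muscle creatine kinase (Ckm) 12.07 and 12.11, and the fatty acid transporter Cd36 8.90 and 9.82 in labelled-null and control skin. Fat markers were not all bright: adiponectin (Adipoq) averaged 4.57 and 5.40, while the lipid-binding protein Fabp4 averaged 9.09 and 10.22.

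Trarg1, a membrane protein of GLUT4 storage vesicles that helps keep the transporter in its insulin-responsive pool in cultured adipocytes, was lower on the arrays labelled Pparg null. It read 6.68, 6.56, 6.71 and 6.76 on labelled-null arrays 1 to 4, against 7.35, 7.43, 7.09 and 7.41 on control arrays 1 to 4. All 4 labelled-null values lay below the lowest control value, which came from control array 3. The means were 6.68 ± 0.09 and 7.32 ± 0.16 (log2 values, SD, n = 4 each), a difference of -0.64 with a 95% interval of -0.82 to -0.46 by limma. On a linear scale this is 1.56-fold lower in labelled-null skin (interval 1.37 to 1.77). Trarg1 was above the 30th percentile of every array, the brightness needed to be tested, but above the array's median only on the 4 control arrays.

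Of the 9 genes, 1 passed a limma adjusted p of 0.05, and it was Trarg1. Because Trarg1 was selected on this difference, its pass in this fit was known beforehand and is no test of it. Nothing is read from the count, and the values below show only that it depended on the arrays and settings used. Over all 15174 genes tested, 18 passed (0.119%). Groups did not overlap, with the labelled-null side lower, in 1.67% of tested genes. The count among the 9 genes went to 0 without labelled-null array 1, 2 or 3 or control array 1, 2 or 4. It was also 0 with the replicate number as a block and when labelled-null array 4 and control array 1 were both left out. The difference of Trarg1 itself stayed between -0.72 and -0.60 when any 1 array was left out.

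**Figure D1:**
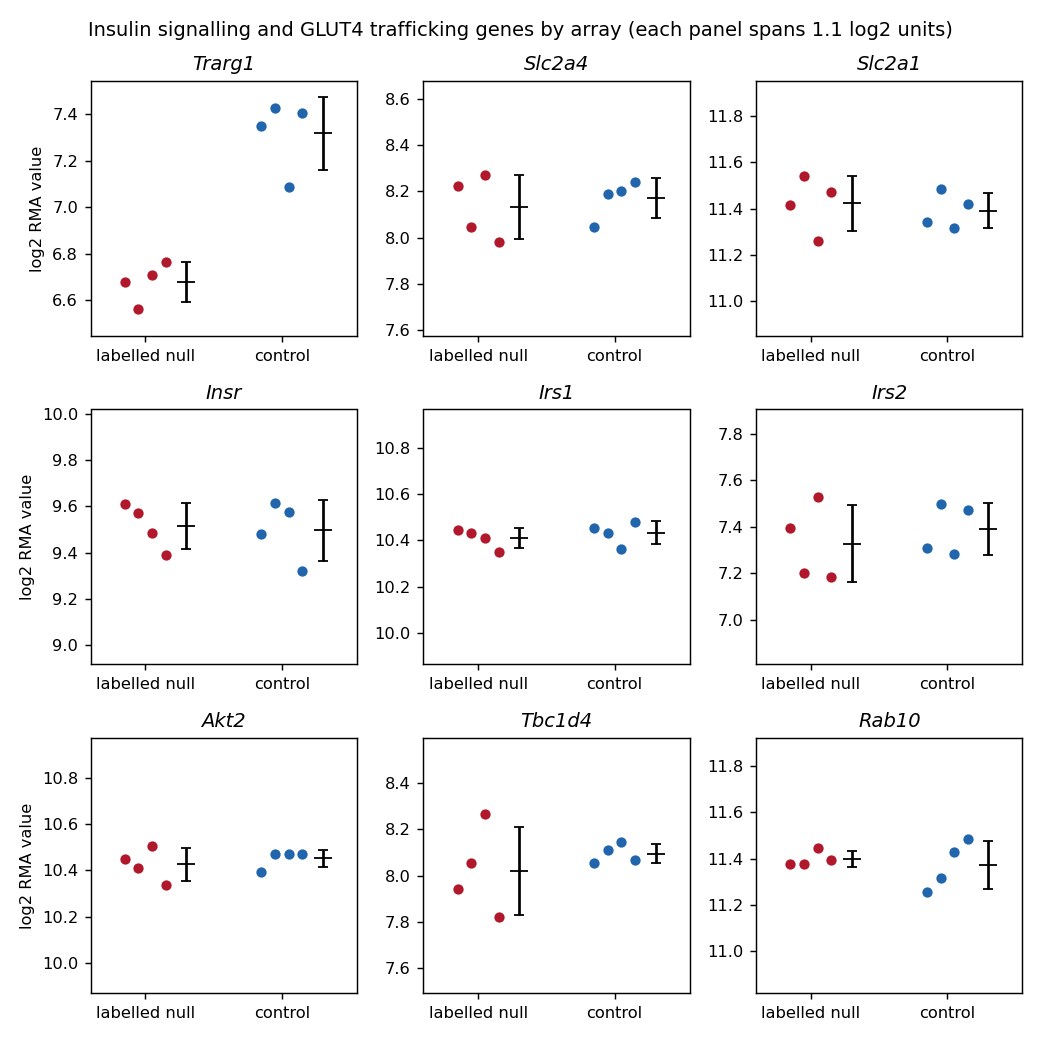
Log2 RMA values of the 9 genes on each array, labelled-null arrays 1 to 4 on the left of each panel and control arrays 1 to 4 on the right, with the group mean and SD in black (n = 4). Every panel spans the same number of log2 units. Trarg1 separates the groups (6.56 to 6.76 against 7.09 to 7.43), and the values of the other 8 genes overlap.

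Slc2a4 encodes GLUT4, the insulin-responsive transporter that Trarg1 travels with, and its transcript did not pass the test. It read 8.22, 8.05, 8.27 and 7.98 on labelled-null arrays 1 to 4, against 8.04, 8.19, 8.20 and 8.24 on control arrays 1 to 4. The lowest and the highest of the 8 values were both labelled-null. The difference was -0.04 (95% interval -0.21 to 0.13, limma adjusted p = 0.9995). The lower bound is a 1.16-fold fall.

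Slc2a1 encodes GLUT1, the transporter for basal glucose uptake in many cells, basal keratinocytes among them. It read 11.42, 11.54, 11.26 and 11.47 on labelled-null arrays 1 to 4, against 11.34, 11.48, 11.32 and 11.42 on control arrays 1 to 4. The labelled-null values enclosed the control values on both sides. The difference was 0.03 (95% interval -0.12 to 0.18, limma adjusted p = 0.9995).

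The receptor Insr, a tyrosine kinase at the cell surface, read 9.61, 9.57, 9.48 and 9.39 on labelled-null arrays 1 to 4, against 9.48, 9.62, 9.57 and 9.32 on control arrays 1 to 4. All labelled-null values fell inside the control range, and the difference was 0.02 (95% interval -0.15 to 0.19). A second Insr cluster, dimmer on average, differed by -0.05 (limma adjusted p = 0.99998 with every cluster tested on its own).

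The docking proteins Irs1 and Irs2, which the receptor phosphorylates, overlapped between groups as well. Irs1 read 10.44, 10.43, 10.41 and 10.35 on labelled-null arrays 1 to 4, against 10.45, 10.43, 10.36 and 10.48 on control arrays 1 to 4, a difference of -0.02 (95% interval -0.13 to 0.08). Irs2 read 7.39, 7.20, 7.53 and 7.18 on labelled-null arrays 1 to 4, against 7.31, 7.498, 7.28 and 7.47 on control arrays 1 to 4, a difference of -0.06 (95% interval -0.26 to 0.13). Irs2 varied more from array to array, with an SD of 0.17 and 0.11 in labelled-null and control skin, against 0.04 and 0.05 for Irs1. The second Irs1 cluster, near the brightness limit at 5.89 and 5.91, differed by -0.02.

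Akt2, the AKT isoform that mouse fat and muscle chiefly use for insulin-stimulated glucose uptake, read 10.45, 10.41, 10.51 and 10.34 on labelled-null arrays 1 to 4. On control arrays 1 to 4 it read 10.39, 10.47, 10.47 and 10.47. The highest and the lowest values were both labelled-null, and the difference was -0.03 (95% interval -0.14 to 0.09). The second Akt2 cluster is annotated with the same 10 accessions and differed by -0.05. Without probe positions, it is not known whether one of these clusters reads another copy of the sequence.

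Tbc1d4 encodes the Rab GTPase-activating protein also called AS160, which AKT inhibits. It read 7.94, 8.05, 8.27 and 7.82 on labelled-null arrays 1 to 4, against 8.05, 8.11, 8.15 and 8.07 on control arrays 1 to 4. Its SD was 0.19 in labelled-null skin and 0.04 in control skin, and the labelled-null values ran past the control values at both ends. The difference of -0.07 (95% interval -0.27 to 0.12) was the farthest from 0 among the 8 genes other than Trarg1.

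Rab10, the GTPase that carries GLUT4 vesicles to the surface of adipocytes, read 11.38, 11.38, 11.45 and 11.39 on labelled-null arrays 1 to 4, against 11.26, 11.32, 11.43 and 11.48 on control arrays 1 to 4. Here the control arrays were the more spread, with an SD of 0.10, against 0.03 in labelled-null skin. The difference was 0.03 (95% interval -0.10 to 0.16).

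For the 8 genes other than Trarg1 together, 5 lay below control and 3 above. Groups did not overlap in 2.45% of all tested genes and in 0 of these 8. An unadjusted p under 0.05 held for 3.61% of all tested genes and for 0 of these 8. Neither count sets the 8 genes apart from tested genes in general. The limma adjusted p was 0.9995 for each of the 8. Their 95% intervals ran from -0.27 to 0.19, so that changes beyond a 1.20-fold fall or a 1.14-fold rise lay outside the interval of every one of them. The median difference was -0.02 for these 8 genes, against -0.0006 for all tested genes.

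**Figure D2:**
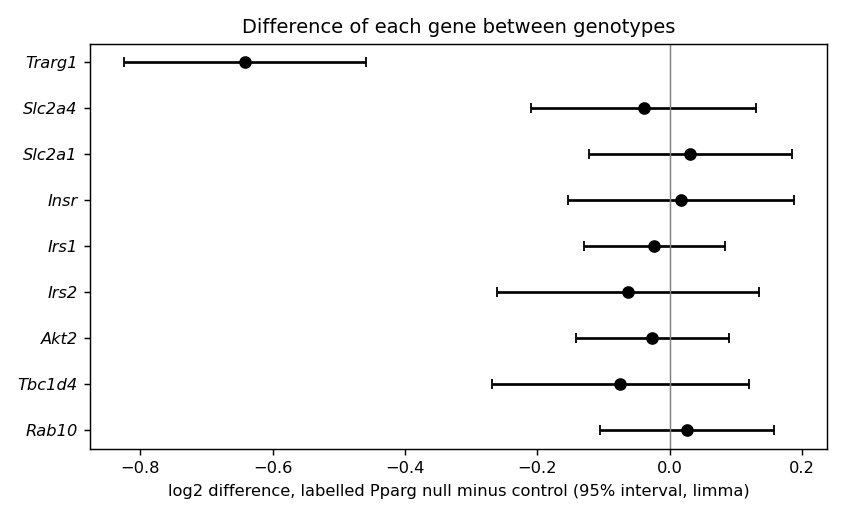
Log2 difference of each gene, labelled Pparg null minus control, with the 95% interval from limma (4 arrays each). Trarg1 lies at -0.64, and the intervals of the other 8 genes include 0 and lie between -0.27 and 0.19.

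Genes of the fat cell were lower on the same arrays as Trarg1. Of 19 white adipocyte markers, 16 had a cluster with 1 symbol and 14 were tested, of which 4 fell past the limma threshold over all genes, 12 lay below control and 2 above (median -0.28). The list was assembled with these falls known, so it is no independent evidence. The summed level of the 16 genes (log2 of the summed linear values) ran from 12.30 to 12.55 on labelled-null arrays and from 12.75 to 12.94 on control arrays. Adipoq and Lep lay below the brightness limit, and no marker is listed at 0. Trarg1 had a smaller difference (-0.64) than Cd36 (-0.92), the lipid-binding protein Fabp4 (-1.13) or the glycerol channel Aqp7 (-0.85). Its difference was farther from 0 than the median of the 14 tested markers (-0.28), which ran from -1.13 to 0.05. In bulk skin, fewer fat cells and less of these RNAs in each fat cell cannot be told apart, and the part of fat cell number in the Trarg1 difference was not tested.

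Within the groups, fat genes were in the same order as Trarg1 on some arrays and not on others. Control array 3 had the lowest control value of Trarg1 (7.09), and the highest of lipoprotein lipase, Lpl (10.31), and Cd36 (9.92). Labelled-null array 4 had the highest labelled-null value of Trarg1 (6.76), together with the lowest of Fabp4 (8.79), Lpl (8.74) and Aqp7 (6.11). That array also had the highest labelled-null value of the lipid droplet protein Plin1 (6.47) and of the summed white adipocyte level (12.55). The summed level is weighted to the brightest genes. The brightest was Dgat2, which averaged 11.09 and 11.06 in labelled-null and control skin. By the mean log2 value of the tested markers, labelled-null array 3 was highest (7.82) and labelled-null array 4 read 7.71. With 4 arrays a group, these orders are a description only.

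**Figure D3:**
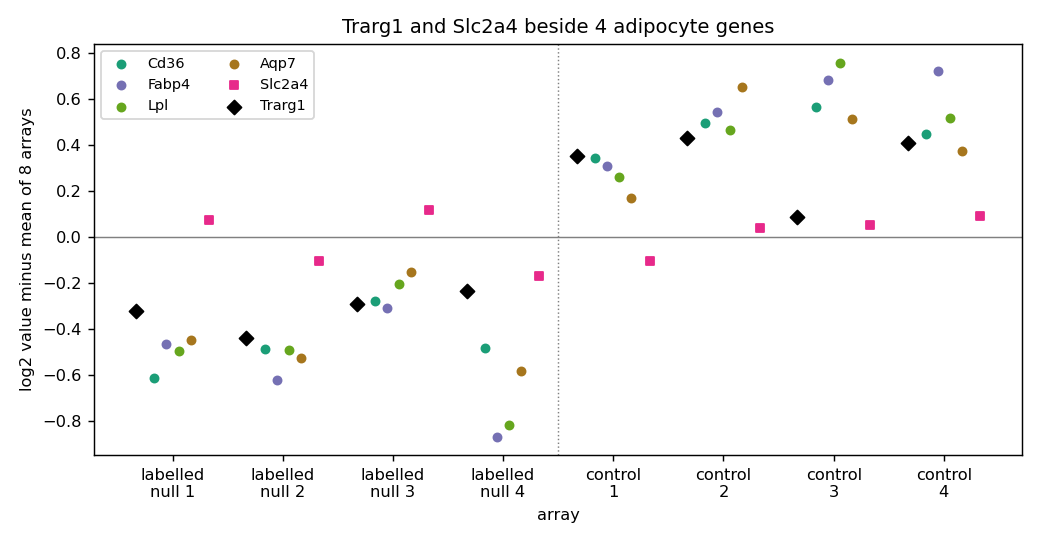
Log2 value on each array minus the gene's mean over 8 arrays, for Trarg1 (black diamonds), Slc2a4 (pink squares) and the fat genes Cd36, Fabp4, Lpl and Aqp7 (circles). Trarg1 and the fat genes lie below 0 on all 4 labelled-null arrays and above 0 on all 4 control arrays, while Slc2a4 is spread about 0 in both groups.

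The genes whose 8 values, each centred on the gene's mean, lay nearest to those of Trarg1 were Bmper, Btnl9, Acot7, Abcd2 and Ptger3. The root mean square distance over the 8 arrays was 0.084 log2 units for Bmper, a secreted BMP regulator, and 0.132 for Btnl9, a butyrophilin-like membrane protein. It was 0.133 for the acyl-CoA thioesterase Acot7, 0.146 for the peroxisomal fatty acyl transporter Abcd2 and 0.147 for the prostaglandin E2 receptor Ptger3. Among the other 8 genes of the set, Irs2 was nearest at 0.314, with 1893 genes nearer, and Slc2a4 stood at 0.337. Abcd2 read 6.91 to 7.06 on labelled-null arrays and 7.30 to 7.61 on control arrays, a difference of -0.45. These 5 genes were picked for their likeness to Trarg1, so their differences are given no test.

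Slc2a4 was high on the arrays where muscle genes were high. The 16 skeletal muscle markers, all tested, had 0 past the limma threshold, 0 with an unadjusted p under 0.05 and a median difference of -0.03. Their mean log2 value ran from 10.22 to 10.80 on labelled-null arrays and from 10.37 to 10.62 on control arrays, and their summed level from 14.97 to 15.51 and from 15.11 to 15.35, with none listed at 0. Over the 8 arrays Slc2a4 correlated with the mean of the list at r = 0.918 (exact permutation p = 0.00136) and rho = 0.762 (exact permutation p = 0.0368). The r of Akt2 with the list was 0.941 (exact permutation p = 0.000719) and its rho 0.881 (exact permutation p = 0.00724). The second Akt2 cluster, outside the 56 relations counted here, had r = 0.922 (exact permutation p = 0.000818) and rho = 0.833 (exact permutation p = 0.0154).

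The 7 lists compared were those of skeletal muscle, brown fat, basal and suprabasal epidermis, erythroid cells, endothelium and the hypoxia response; white adipocyte markers were left out because their groups do not overlap. Slc2a4 and Akt2 with muscle were the 2 of 56 relations between 8 genes and 7 lists whose r passed after adjustment (adjusted exact permutation p = 0.0382 for both), and 0 passed by rho (0.231 for Slc2a4 and 0.135 for Akt2). Without the 2 arrays farthest from the median of the list, labelled-null arrays 3 and 4, r was 0.875 for Slc2a4 and 0.887 for Akt2 (n = 6). Without labelled-null array 4 and control array 1, the outlying arrays on that leading component, r was 0.835 and 0.937 (n = 6). After each group's mean was removed, r was 0.918 for Slc2a4 and 0.948 for Akt2. Large correlations were not limited to muscle. With the hypoxia list Slc2a4 had r = -0.679 and rho = -0.810 (adjusted exact permutation p = 0.258 and 0.203). Without labelled-null array 4 and control array 1, that r was -0.898 (n = 6). With suprabasal epidermis r was -0.729 for Slc2a4 and -0.800 for Akt2 (adjusted exact permutation p = 0.187 for both). The relations were chosen for testing after the values had been seen. The same labelled-null array 4 and control array 1 were among the lowest for the muscle list, and the part of the shared component in these relations was not tested.

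For the remaining genes the relation with muscle did not pass after adjustment, and differences between the correlations were not tested. Irs2 had r = 0.866 (adjusted exact permutation p = 0.0844, n = 8) and rho = 0.881, the same rho as Akt2 (adjusted exact permutation p = 0.135). Tbc1d4 had r = 0.782 (adjusted exact permutation p = 0.187, n = 8). The value for Tbc1d4 rested on the 2 farthest arrays, since it was 0.154 without them. Slc2a1 ran the other way at r = -0.598 (adjusted exact permutation p = 0.371, n = 8). Trarg1 was left out of these relations because its values form a separate cluster in each group.

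**Figure D4:**
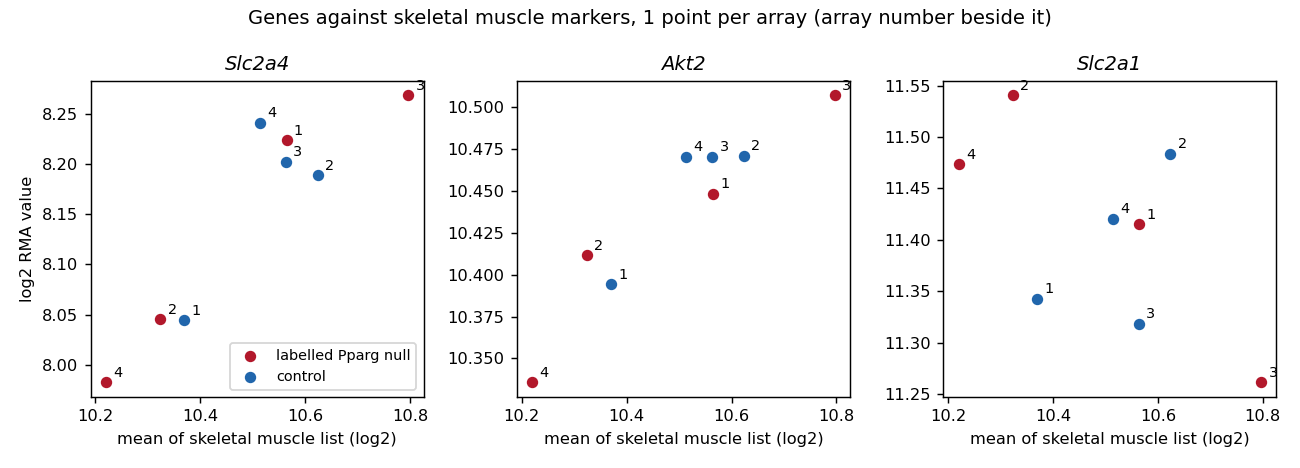
Log2 values of Slc2a4, Akt2 and Slc2a1 (vertical axes) against the mean log2 value of 16 skeletal muscle markers (horizontal axes), 1 point per array with its number, labelled-null arrays in red and control arrays in blue. Slc2a4 and Akt2 are lowest on labelled-null array 4 and highest on labelled-null array 3, the arrays with the lowest and the highest muscle markers, and Slc2a1 shows no such rise.

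Slc2a1 was set beside markers of cells that use GLUT1. The 8 basal epidermis markers had 0 genes past the limma threshold, 0 with an unadjusted p under 0.05 and a median difference of -0.02. Their summed level ran from 13.95 to 14.04 on labelled-null arrays and from 13.97 to 14.07 on control arrays. Of 12 tested genes of the hypoxia response, of which GLUT1 is a known target, 10 lay above control and 2 below, with a median of 0.08, 0 past the limma threshold and 1 with an unadjusted p under 0.05, the kinase Pdk1 (0.17). The 4 tested erythroid markers all lay above control (median 0.22), with 0 past the limma threshold and 2 with an unadjusted p under 0.05, which held for 3.61% of all tested genes. Over the 8 arrays Slc2a1 correlated at r = 0.521 with the hypoxia list (adjusted exact permutation p = 0.418), at -0.231 with basal epidermis (0.750) and at 0.077 with the erythroid list (0.905), and none of these passed.

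Beyond the 9 genes, the pathway was followed through 8 lists that name 120 genes, of which 113 had a cluster with 1 symbol and all of these were tested. Leaving out the 9 genes, 0 of 104 passed the limma threshold in either direction and 2 had an unadjusted p under 0.05 (1.92%, against 3.61% of all tested genes). Of the 104, 58 lay below control, and the median difference was -0.007. The differences ran from -0.16 to 0.23.

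In the list of GLUT4 storage vesicle cargo and sorting, 13 genes were tested, with 6 below and 7 above control (median 0.01). Aspscr1 encodes TUG, the tether that holds GLUT4 vesicles inside the cell, and read 8.69, 8.65, 8.71 and 8.66 on labelled-null arrays 1 to 4, against 8.83, 8.82, 8.76 and 8.90 on control arrays 1 to 4. Its groups did not overlap, which held for 2.45% of tested genes in either direction, and its difference of -0.15 had an unadjusted p under 0.05 but did not pass over all genes (limma adjusted p = 0.9995). The small GTPases Rab4a and Rab11a, which recycle endosomal cargo, differed by 0.10 and 0.11. The mean of the list did not overlap between groups with Trarg1 in it (9.25 to 9.29 in labelled-null skin and 9.30 to 9.35 in control skin) and did overlap without it (9.46 to 9.51 and 9.47 to 9.51).

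In the list from insulin receptor to AKT, 0 of 17 tested genes passed the limma threshold and 0 had an unadjusted p under 0.05 (median -0.01, 10 below and 7 above control). The PI3K regulatory subunits Pik3r2 and Pik3r1 and the kinase Akt1 differed by -0.10, -0.12 and -0.11. Among 14 tested brakes on insulin signalling, 0 passed the limma threshold and 0 had an unadjusted p under 0.05 (median -0.02). The regulatory phosphatase subunit Ppp2r5b lay farthest from control at -0.16.

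Among 16 tested targets of AKT and mTORC1, 12 lay below control and 4 above, with 0 past the limma threshold and 1 with an unadjusted p under 0.05 (median -0.02). That gene was Srebf1, the SREBP-1 factor of fatty acid synthesis, at 8.63 ± 0.05 and 8.77 ± 0.05 in labelled-null and control skin (log2 values, SD, n = 4 each; difference -0.14, limma adjusted p = 0.9995), and its groups did not overlap. The transcription factor Foxo1 and the phosphodiesterase Pde3b, through which insulin restrains lipolysis, differed by -0.14 and -0.16. Pfkfb3, next by unadjusted p, differed the other way, by 0.10.

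The lists of Rab control and tethering (20 tested), docking and fusion (10 tested) and caveolae and the lipid raft arm (12 tested) had 0 genes past the limma threshold and 0 with an unadjusted p under 0.05. Their medians were 0.002, 0.007 and -0.03. In these lists Exoc3, a subunit of the exocyst tether, differed by 0.09, Stxbp3, the Munc18c partner of the fusion protein syntaxin 4, by 0.08, the adaptor Sh2b2 by -0.12 and the caveolar coat protein Cavin1 by -0.09.

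All 12 facilitative glucose transporters in the list were tested, with 0 past the limma threshold and 0 with an unadjusted p under 0.05 (5 below and 7 above control, median 0.02). Slc2a10 differed by -0.16, Slc2a2, the transporter of liver and pancreatic beta cells, by -0.16, Slc2a12 by -0.11 and Slc2a13, a myo-inositol transporter, by 0.08. Slc2a2 averaged 5.90 and 6.06 in labelled-null and control skin, close to the brightness limit of 5.62 to 5.67.

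**Figure D5:**
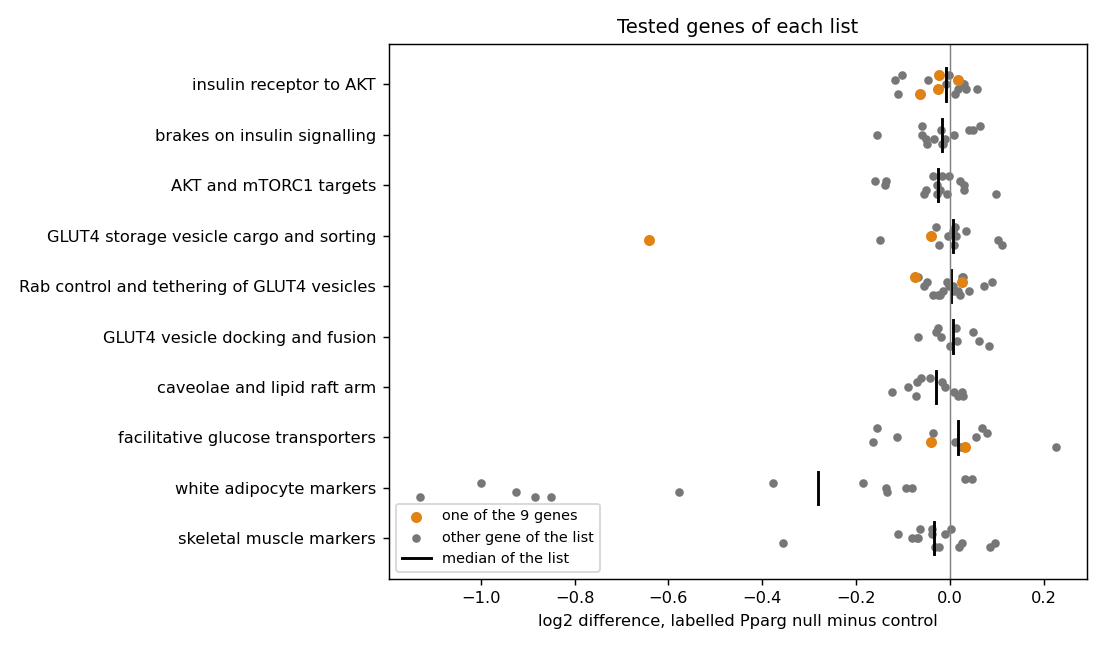
Log2 differences, labelled Pparg null minus control, of the tested genes of the 8 pathway lists and of the white adipocyte and skeletal muscle markers, 1 point per gene with the 9 genes in orange and the list median as a black bar. Pathway genes other than Trarg1 lie between -0.16 and 0.23, Trarg1 lies at -0.64, and the white adipocyte markers have a median of -0.28.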

How the data were processed

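Per the labels' protocols, 100 ng of total RNA was amplified by a whole-transcript method and 5.5 μg of fragmented cDNA was biotin-labelled for each single-colour array. Per the submitters' processing notes, the authors made the deposited log2 values with Affymetrix Expression Console by RMA; no version or annotation build is stated in the sources used here. RMA hides a shift common to all transcripts and the loss of single exons. Of 35556 transcript clusters, 21789 had 1 gene symbol, 1621 several and 12146 none listed; symbols were updated by gene ID for 21698 through a RefSeq table (GRCm38.p6). A gene was tested when 4 or more of the 8 arrays put its cluster over their 30th percentile (15174 of 19938 genes).

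Differences are labelled null minus control, from limma 3.58.1 with no covariate (R 4.3.3; lmFit, eBayes, two-sided, Benjamini-Hochberg over all tested genes). The step was tested on simulated data. Precision is limited by 4 arrays per group. The genes and lists were chosen with earlier results of these data known. The genes named are the 9, Pparg and up to 4 genes of each pathway list with the smallest unadjusted p. Markers named are among the first 4 of each marker list, and the 5 genes nearest to Trarg1 are also named. Plin1, Adipoq, Lep and Dgat2, later in the white adipocyte list, were named outside this rule. Slc2a3 was named after its values were seen. The correlations with marker lists were added after the values were seen. Alternatives were other filters, scalings, priors, array weights, a replicate block, cluster handling, thresholds, an Xist covariate and leaving out arrays.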

Additional observations from a re-analysis of the deposited data

Results flagged for a closer look

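In 2 of the 52 groups of 4 arrays examined, 1 array lay far from the others by the gap to its neighbour as a share of the group's range (limit 0.829); chance gives about 1 in 20 groups. Akt2 read 10.39 on control array 1 and 10.47 on the other control arrays (gap 0.991), a spread of 0.08 log2 units in all. The mean of the GLUT4 storage vesicle list, with Trarg1 in it, reached 9.35 on control array 2, with the 3 remaining control arrays at 9.30 to 9.31 (gap 0.880).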

How the results depend on the processing

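The difference of Trarg1 was below 0 in all 19 other fits, from -0.72 to -0.60 when 1 array was left out and from -0.68 to -0.64 otherwise. The other 8 genes did not pass limma in any of their 152 values (lowest adjusted p 0.982); Irs2 and Tbc1d4 kept their sign in all 19 fits, and the remaining 6 changed sign in 1 to 4 fits each. The count among the 9 genes was 1 in 11 of 21 settings and 0 in 10. It was 0 with the replicate block, with every transcript cluster on its own, with labelled-null array 4 and control array 1 both left out and at an adjusted p of 0.01. In these settings the count over all genes was 1, 1, 14 and 3, against 18, and it was 11 with the Xist value as a covariate. Leaving out 1 array gave 0 to 1 of the 9 genes and 3 to 15 genes in all; such fits have fewer samples. The deviations of same-numbered arrays from their group means correlated across tested genes at r = -0.31, 0.20, 0.05 and -0.03. No pairing by number was seen, but so few values cannot exclude one. Under the replicate block the difference of Trarg1 stayed at -0.64. Genes near the brightness limit, such as Slc2a2, are measured less well than bright ones.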

Other observations

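Slc2a3, which encodes the high-affinity transporter GLUT3 and is named after its values were seen, had the widest spread of the 12 glucose transporters. It read 6.9975, 7.09, 6.49 and 7.62 on labelled-null arrays 1 to 4, against 7.82, 6.83, 6.30 and 6.34 on control arrays 1 to 4. The highest values came from control array 1 and labelled-null array 4, the outlying arrays on the leading principal component. The difference between the groups was 0.23 with a 95% interval of -0.52 to 0.98 (limma adjusted p = 0.9995).

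The 8 genes of the insulin pathway other than Trarg1 tended to sit low on those same arrays. On labelled-null array 4, 7 of 8 lay below their group mean and 6 were the lowest of their group, and on control array 1, 7 of 8 lay below and 4 were the lowest. On the other 6 arrays 2 to 4 of the 8 lay below their group mean. Of 10 brown adipocyte markers 8 were tested; Ucp1, the uncoupling protein that defines brown fat, lay under the brightness limit at 5.42 and 5.45 in labelled-null and control skin. Irs2 correlated with the mean of the 8 at r = 0.907 (exact permutation p = 0.00397, adjusted p = 0.0741, n = 8), rho = 0.905 (exact permutation p = 0.00456, adjusted p = 0.135) and r = 0.847 without the 2 farthest arrays. With this list r was 0.782 for Slc2a4 and 0.756 for Akt2 (adjusted exact permutation p = 0.187 for both). For the rest it ran from -0.342 for Slc2a1 to 0.543 for Tbc1d4. The brown and muscle lists were both highest on labelled-null array 3 and lowest on labelled-null array 4. The part of muscle in the Irs2 relation was not tested.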
